A study of Mus musculus with 4 samples.

Results

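The Janus kinases (JAKs), the signal transducers and activators of transcription (STATs) and a suppressor of cytokine signaling (SOCS) were examined in hematopoietic stem and progenitor cells (HSPCs) of mouse bone marrow (BM). The set was chosen by gene name and comprised 10 of the 32272 genes in the deposited matrix: the kinases *Jak1*, *Jak2*, *Jak3* and *Tyk2*, the factors *Stat3*, *Stat4*, *Stat5a*, *Stat5b* and *Stat6*, and the inhibitor *Socs2*. The cells were lineage-negative and cKit-positive, sorted from the BM of wild-type male C57BL/6 mice that were 8 weeks old. Control mice (Ctrl) stayed unligated and ligature mice (Lig) carried a silk ligature on their teeth for 14 days, and the marrow of 5 mice was pooled into 1 sample per group. Each sample gave an RNA and an ATAC library from the same nuclei, so there were no replicates. Barcodes in the single pooled matrix end in 1 or 2, and the labels do not say which ending is Ctrl and which is Lig. Nuclei are therefore given as library 1 and library 2, without a group, and Lig and Ctrl were not compared.

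Cytokine receptors of the JAK-STAT class have no kinase activity of their own and carry JAKs on their intracellular tails. When a cytokine joins the receptor chains, the JAKs phosphorylate the receptor and the STATs that dock on it, and STAT pairs then enter the nucleus and bind DNA. SOCS proteins are among the products of STAT target genes and restrain the same receptors. In BM, the erythropoietin and thrombopoietin receptors signal through JAK2 and STAT5, the granulocyte colony-stimulating factor receptor mainly through STAT3, and the IL-7 receptor through JAK1, JAK3 and STAT5.

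After filtering, 5905 nuclei with 10294527 unique molecular identifiers (UMIs) remained in library 1 and 7714 nuclei with 12537328 UMIs in library 2. Genes of a ribosomal locus took 43.0% of the UMIs in library 1 and 53.2% in library 2. The median of the 8825 genes with at least 100 UMIs lay at 0.632 times its library 1 level in library 2, a log2 shift of -0.66. Levels are a gene's UMIs per 1000000 UMIs of the same nuclei (CPM). All intervals are at the 95% level and reflect counting error alone, and with 1 sample per group no test could be made. The libraries shared 72 barcode sequences among their kept nuclei. *Kit*, the receptor used in the sort, was at 138 CPM in library 1 and 73.4 CPM in library 2.

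Joint clustering of RNA and ATAC, with the 10 genes, the other pathway genes and the peaks near the 10 genes left out, gave 19 clusters. Of these, 18 held at least 50 nuclei in each library and are described. Marker genes named 11 of them: hematopoietic stem cell (HSC)-like, granulocyte-monocyte progenitor (GMP)-like, neutrophil progenitor (NeuP)-like, monocyte progenitor (cMoP)-like, conventional (cDCP)-like and plasmacytoid (pDCP)-like dendritic cell progenitor, megakaryocyte progenitor (MkP)-like, erythrocyte progenitor (EryP)-like, basophil progenitor (BaP)-like, pro-B-like and NK/T-like. These held 44.9% of the kept nuclei. The other 7 carry numbers. Cluster 11 was led by genes that included *Rag1* and *Lef1*, cluster 14 by *Jchain*, *Igha* and *Ms4a1*, cluster 4 by *Cmah*, *Mn1* and *Sema3d*, and cluster 0 by *Tnf*, *Tmem178* and *Nrg1*. All 10 genes of the NK/T list were highest in the NK/T-like nuclei, *Cd3e* from 4 UMIs. Their sum was at 1205 CPM there in library 1 and at 546 CPM in library 2, against at most 54.1 and 26.3 CPM in any other described population. The lineage-negative gate would remove mature T and B cells, and the part of carried-over cells in the values of this population was not tested.

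In GRCm38, *Jak1* lies at chr4:101152367-101265282, *Jak2* at chr19:29251828-29313080, *Jak3* at chr8:71676296-71690575 and *Tyk2* at chr9:21104068-21131243. *Stat5b* (chr11:100780731-100850724), *Stat5a* (chr11:100859351-100885169) and *Stat3* (chr11:100885098-100939540) form 1 cluster on chromosome 11. *Stat4* lies at chr1:51987148-52107189, *Stat6* at chr10:127642986-127660957 and *Socs2* at chr10:95385362-95417180.

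All 10 genes had at least 100 UMIs, from 108 for *Socs2* to 2254 for *Jak1*. Per kilobase of gene span, introns included and with the libraries summed, *Stat3* stood highest at 1.36 CPM per kb. *Stat6* followed at 0.924, *Jak1* at 0.874, *Stat5a* at 0.826, *Stat5b* at 0.795, *Jak3* at 0.687, *Jak2* at 0.661 and *Tyk2* at 0.656 CPM per kb. *Stat4* was far below them at 0.282 and *Socs2* lowest at 0.149 CPM per kb. *Stat3* was highest and *Stat4* and *Socs2* lowest in each library, but the order of the other genes depended on the library. *Jak3* was at 0.619 CPM per kb in library 1, above *Stat4* and *Socs2* only, and at 0.743 in library 2, below *Stat3* only. *Jak1* was at 1.202 and 0.605 CPM per kb in the libraries, above *Jak3* in library 1 and below it in library 2. The order also depended on the length used. Per kilobase of exon, again with the libraries summed, *Jak1* led at 13.7 CPM per kb, *Stat4* came to 8.74 and *Socs2* was lowest at 0.496 CPM per kb.

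A population was counted for a gene when its CPM was at least 2-fold that of all other kept nuclei together, with at least 20 UMIs in the population. By this rule 8 of the 10 genes had such a population, against a background of 31.9% of all genes with at least 100 UMIs. The 8 genes had 14 such populations between them. Of the 14, 7 also had a ratio of at least 2 in each library alone, where the minimum of 20 UMIs was not applied. With that minimum, *Jak3* had no such population in library 1 alone and *Socs2* none in library 2 alone. With library 2 alone 5 genes had such a population (*Jak1*, *Jak2*, *Jak3*, *Stat4* and *Stat5b*), against a background of 15.3%, and with at least 50 UMIs in the population 5 did (*Jak1*, *Jak2*, *Stat3*, *Stat4* and *Stat5b*), against 17.6%. *Tyk2* and *Stat6* had none. In the map of ratios, NK/T-like, HSC-like and EryP-like nuclei and cluster 4 recurred, where the median gene was at 1.27-fold, 1.19-fold, 1.24-fold and 1.18-fold. The median gene was itself shifted in most populations, from 0.810-fold in NeuP-like nuclei to 1.46-fold in cluster 11. Relative to the median gene of each population, 23.0% of all genes with at least 100 UMIs had a population at 2-fold. Of the set, 8 of the 14 pairs and 6 of the 8 genes stayed at 2-fold. The pairs that fell below it were *Jak2* in EryP-like nuclei at 1.83, *Jak3* in cluster 4 at 1.89, *Stat3* in HSC-like nuclei at 1.90, *Stat4* in HSC-like nuclei at just under 2, *Stat5a* in EryP-like nuclei at 1.75 and *Stat5b* in EryP-like nuclei at 1.64. Of the recurring populations, NK/T-like nuclei alone kept all their pairs. With library 2 alone 7 pairs reached 2-fold, and a share over all pairs of gene and population is not given for these pair counts.

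**Figure D1:**
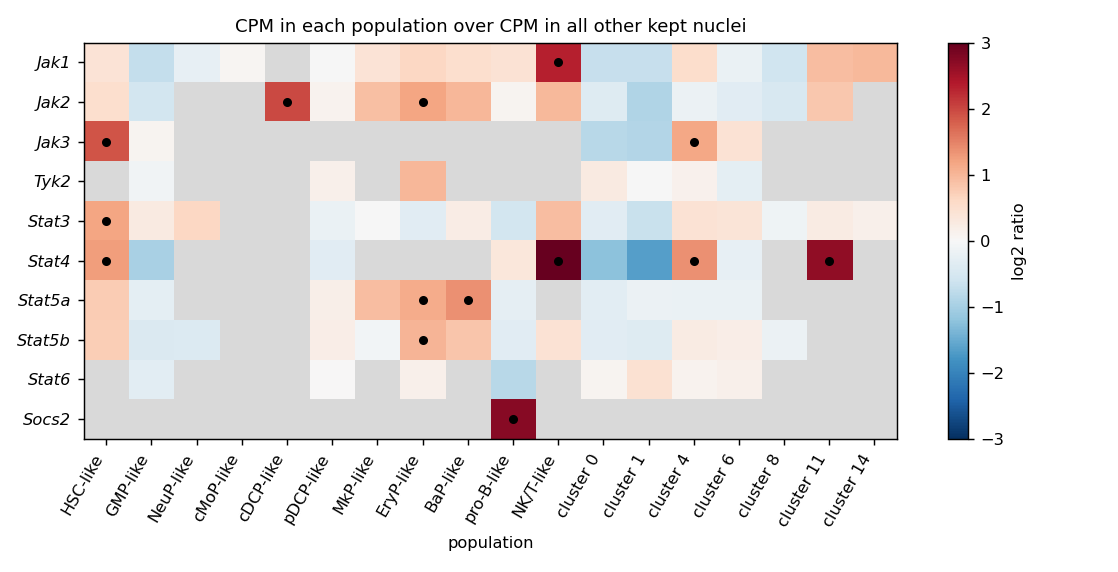
Log2 ratio of the CPM in each of 18 populations (columns) to the CPM in all other kept nuclei, for the 10 genes (rows), with the libraries summed. Grey cells hold fewer than 20 UMIs and black dots mark the 14 pairs at 2-fold or more. *Stat4* reached 9.69-fold in NK/T-like nuclei, and *Tyk2* and *Stat6* carry no dot.

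*Jak1*, the kinase shared by most receptor families of this class, peaked in NK/T-like nuclei. Its level there was 582 CPM in library 1 and 336 CPM in library 2, or 472 CPM (interval 393 to 562) with the libraries summed. This was 5.00-fold the other nuclei (interval 4.14 to 5.99) and 3.94-fold relative to the median gene. No other population came near this level. Cluster 14 was next with 191 CPM (142 to 253) and cluster 11 followed with 184 CPM (142 to 234), and the intervals of these neighbours overlapped almost entirely. The lowest levels were 62.2 CPM in GMP-like nuclei, 64.6 CPM in cluster 1, 65.4 CPM in cluster 0 and 66.0 CPM in cluster 8, which did not differ beyond their intervals. *Jak1* was detected in every described population.

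*Jak2*, which serves the receptors for erythropoietin, thrombopoietin and the interleukin-3 family, had another order. It peaked in cDCP-like nuclei, with 218 CPM in library 1 and 92.7 CPM in library 2. The summed level was 154 CPM (109 to 210) from 39 UMIs, 3.92-fold the other nuclei (2.77 to 5.41) and 3.37-fold relative to the median gene. EryP-like nuclei came next at 86.9 CPM (70.3 to 106), 2.28-fold the others (1.82 to 2.82). In that population library 1 alone gave 1.73-fold and library 2 alone 3.11-fold, and the ratio relative to the median gene was 1.83. BaP-like nuclei at 78.7 CPM and MkP-like nuclei at 74.0 CPM stayed just below 2-fold, with 1.98-fold and 1.86-fold. The lowest level was 23.2 CPM in cluster 1, 0.531-fold the other nuclei.

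*Jak3*, which pairs with the common gamma chain of lymphoid cytokine receptors, was sparse, with 224 UMIs in all. HSC-like nuclei held 29 of them, 21.5 CPM in library 1 and 43.4 CPM in library 2. The summed level of 33.0 CPM (22.1 to 47.4) was 3.72-fold the other nuclei (2.42 to 5.51) and 3.13-fold relative to the median gene. The ratio reached 2-fold in each library, but in library 1 from fewer than 20 UMIs. Cluster 4 held 20.1 CPM (13.8 to 28.2), 2.23-fold the others, with 1.84-fold in library 1 and 2.56-fold in library 2. NK/T-like nuclei stood at 30.2 CPM, but from 8 UMIs, with an interval from 13.03 to 59.5 CPM that spans both populations above. No UMI of *Jak3* was found in NeuP-like nuclei, cDCP-like nuclei or cluster 14. At this depth 3 UMIs, the limit that a count of 0 allows, would be 4.66, 11.8 and 11.7 CPM there. With a minimum of 500 genes per nucleus, no population with at least 20 *Jak3* UMIs reached 2-fold, the highest being cluster 4 at 1.79-fold. The HSC-like ratio under that filter is not given here.

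*Tyk2*, the kinase of the interferon, IL-12 and IL-10 receptor families, had no population that met the rule. EryP-like nuclei came closest to the rule at 33.9 CPM (23.8 to 46.7), 1.99-fold the others, with 33.2 CPM in library 1 and 34.7 CPM in library 2. NK/T-like nuclei at 41.5 CPM and cDCP-like nuclei at 39.5 CPM were higher, but from 11 and 10 UMIs, and their intervals held the EryP-like level. The lowest level with more than 10 UMIs was 7.43 CPM (4.25 to 12.1) in pro-B-like nuclei, 0.393-fold the others. *Tyk2* passed 2-fold when nuclei with the highest doublet scores were removed.

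**Figure D2:**
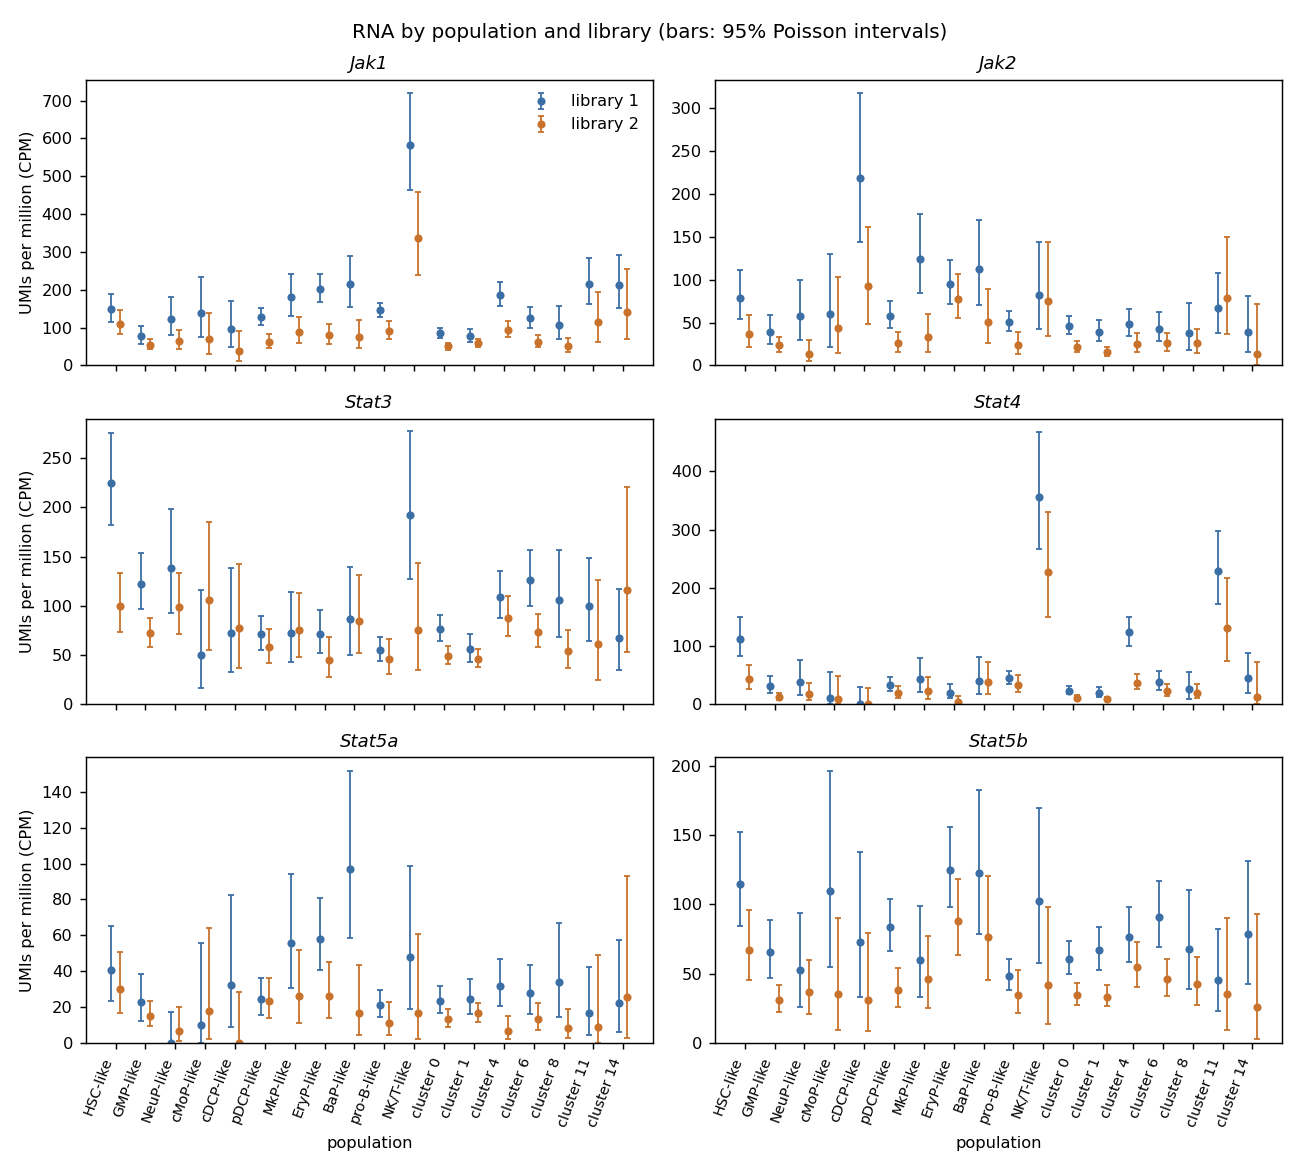
CPM of 6 of the genes in each of 18 populations, with library 1 in blue and library 2 in orange, and bars for 95% Poisson intervals. *Jak1* and *Stat4* stand apart in NK/T-like nuclei of both libraries, at 582 and 336 CPM and at 356 and 227 CPM. For *Stat5b* no population stands apart in this way.

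*Stat3*, the main target of the receptors for granulocyte colony-stimulating factor and IL-6, had the highest level per kilobase of span among the STATs and was highest in HSC-like nuclei. There it reached 225 CPM in library 1 and 99.9 CPM in library 2. The summed level of 159 CPM (134 to 188) was 2.26-fold the other nuclei (1.89 to 2.69) and 1.90-fold relative to the median gene. The 2-fold call rested on library 1, which gave 2.74-fold against 1.64-fold in library 2. It was lost under median-of-ratios scaling, which for populations is the same ratio relative to the median gene, 1.90-fold. It was also lost at a clustering resolution of 0.4, where the highest ratio was 1.91-fold, in NK/T-like nuclei. NK/T-like nuclei were next at 140 CPM (98.3 to 192) and NeuP-like nuclei followed at 112 CPM (87.5 to 141), and both intervals overlapped that of HSC-like nuclei. Cluster 1 at 49.5 CPM and pro-B-like nuclei at 52.5 CPM were lowest.

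*Stat4*, the factor of IL-12 signaling in NK and T cells, was led by the NK/T-like nuclei. In NK/T-like nuclei it stood at 356 CPM in library 1 and 227 CPM in library 2, a summed level of 298 CPM (236 to 371). This was 9.69-fold the other nuclei (7.58 to 12.2) and 7.64-fold relative to the median gene. Cluster 11 was second at 198 CPM (154 to 250), with 229 CPM in library 1 and 132 CPM in library 2, a 6.32-fold ratio (4.87 to 8.09) and 4.34-fold relative to the median gene. Both populations passed 2-fold in each library. Cluster 4 at 78.5 CPM (65.6 to 93.3) and HSC-like nuclei at 76.3 CPM (59.1 to 96.9) followed with 2.58-fold and 2.37-fold and did not differ beyond their intervals. Relative to the median gene cluster 4 was at 2.19-fold. In cluster 4 the level was 123 CPM in library 1 and 37.4 CPM in library 2, and library 2 alone gave 1.94-fold. At the other end, 14 UMIs in EryP-like nuclei made 12.8 CPM (7.003 to 21.5) and 42 UMIs in cluster 1 made 12.01 CPM (8.66 to 16.2). No UMI was found in cDCP-like nuclei, where 3 UMIs would make 11.8 CPM.

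*Stat5a* and *Stat5b*, neighbouring paralogs that act downstream of many cytokine receptors in progenitors, shared their leading populations. *Stat5b* was highest in EryP-like nuclei, at 125 CPM in library 1 and 87.7 CPM in library 2. The summed level of 108 CPM (89.4 to 129) was 2.04-fold the others (1.67 to 2.46), 1.78-fold in library 1 and 2.22-fold in library 2. It fell under 2-fold relative to the median gene, at 1.64, with the ribosomal locus left out of the totals, at 1.93, and at a clustering resolution of 0.4, at 1.87. BaP-like nuclei at 97.2 CPM and HSC-like nuclei at 89.9 CPM were within its interval. *Stat5a* was highest in BaP-like nuclei with 53.3 CPM (33.8 to 79.9), 2.57-fold the others and 2.53-fold relative to the median gene. Only 23 UMIs carried this value, 19 in library 1 and 4 in library 2, and the libraries gave 3.54-fold and 1.11-fold. EryP-like nuclei followed at 43.9 CPM (32.4 to 58.2), 2.17-fold, with 2.16-fold in library 1 and 1.79-fold in library 2. In NeuP-like nuclei *Stat5a* was at 4.66 CPM (0.961 to 13.6), against 41.9 CPM of *Stat5b*. Over the 18 populations log2(CPM + 1) of the paralogs correlated at r = 0.718, a description over points that share library and depth. Over all pairs of the set r ran from -0.384 for *Stat6* and *Socs2* to this value. *Jak1* and *Stat4* were at 0.716, so a value of this size is not particular to the paralogs. Reads of the near-identical parts of these paralogs cannot be assigned with certainty.

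*Stat6*, the factor of IL-4 and IL-13 signaling, had no population at 2-fold. Its levels ran from 9.02 CPM in MkP-like nuclei to 27.6 CPM in cDCP-like nuclei, each from fewer than 10 UMIs. Where at least 20 UMIs were present, the highest level was 21.5 CPM (16.9 to 26.9) in cluster 1 and the lowest 9.75 CPM (6.03 to 14.9) in pro-B-like nuclei, and these intervals did not overlap.

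*Socs2*, the feedback inhibitor that binds the growth hormone receptor and is a target gene of STAT5, had the fewest UMIs of the set. Pro-B-like nuclei held 44 of its 108 UMIs, at 23.0 CPM in library 1 and 14.3 CPM in library 2. The summed level of 20.4 CPM (14.8 to 27.4) was 6.60-fold the other nuclei (4.39 to 9.84) and 5.25-fold relative to the median gene, with 5.93-fold and 5.66-fold the other nuclei in the libraries. Cluster 11 stood at 28.2 CPM (13.5 to 51.9) from 10 UMIs, 29.1 CPM in library 1 and 26.3 CPM in library 2, and did not differ from the pro-B-like level beyond its interval. In the remaining populations *Socs2* ranged from no UMI, as in NeuP-like, cMoP-like, cDCP-like and BaP-like nuclei, to 11.7 CPM from 3 UMIs in cluster 14. With 4.73 CPM over all nuclei, a count of 0 in populations of this depth says little.

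Between the libraries over all nuclei, 9 of the 10 genes had a lower CPM in library 2, as had 92.97% of all genes with at least 100 UMIs. *Jak3* was the exception, at 8.84 CPM (7.12 to 10.9) in library 1 and 10.6 CPM (8.88 to 12.6) in library 2. Relative to the median gene, 2 of the 10 genes lay at least 1.5-fold apart, against a background of 16.1%, and with 10 genes this count is near the background. It was 4 under median-of-ratios scaling, with *Jak2* and *Socs2* added, against a background of 20.3%. For the libraries that scaling took the median over all genes seen in both. Relative to the median of the genes with at least 100 UMIs, *Jak3* was 1.90-fold higher in library 2 (1.44 to 2.51). *Stat4* was at 50.1 CPM (45.9 to 54.6) in library 1 and 20.5 CPM (18.1 to 23.2) in library 2, 0.647-fold relative to the median gene (0.555 to 0.753), a log2 ratio of -0.63. With all barcodes its log2 ratio was -0.57, short of 1.5-fold, and *Jak3* alone passed, against a background of 15.1%. The other ratios relative to the median gene ran from 0.734 for *Socs2* to 1.13 for *Stat3*. *Stat6* was at 1.002 and *Tyk2* at 1.04, with intervals on both sides of 1, as were the intervals of *Socs2*, *Stat5a* and *Stat5b*.

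**Figure D3:**
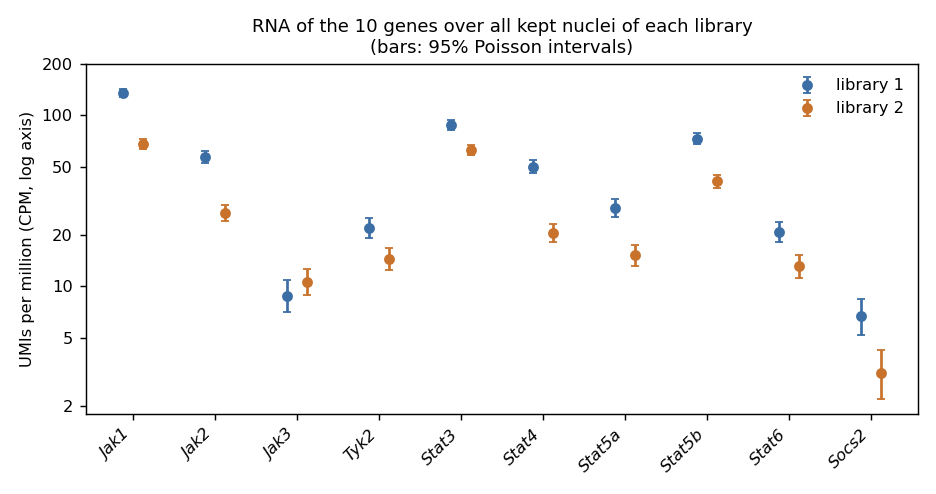
CPM of the 10 genes over all kept nuclei of library 1 (blue) and library 2 (orange) on a log axis, with 95% Poisson intervals. The intervals of the libraries overlap for *Jak3*, the 1 gene with a higher CPM in library 2, at 10.6 against 8.84 CPM. The lower CPM of the other genes in library 2 carries the general shift, as 92.97% of all genes with at least 100 UMIs were lower there.

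Within populations the CPM were compared wherever a gene had at least 20 UMIs in each library. These ratios are not relative to the median gene, and over all genes 88.9% of such pairs of gene and population were lower in library 2, so the counts that follow share the general shift and are no result about these genes. *Jak1* was lower in library 2 in 13 of 13 such populations, with ratios from 0.393 in EryP-like nuclei to 0.757 in cluster 1. *Stat3* was lower in 11 of 11, from 0.444 in HSC-like nuclei to 0.834 in pro-B-like nuclei, and *Stat5b* in 9 of 9. *Stat4* was lower in 7 of 7, from 0.303 in cluster 4 to 0.735 in pro-B-like nuclei, and *Jak2* in 7 of 7. Against the median gene of the same population, *Jak1* was below it in 10 of 13, *Jak2* in 6 of 7 and *Stat4* in 6 of 7. *Stat5b* was below it in 6 of 9, *Stat3* in 5 of 11, *Stat5a* and *Stat6* each in 1 of 2 and *Tyk2* in 0 of 2. As many genes lie below a median as above it. *Jak3* and *Socs2* had no population with enough UMIs. The libraries also differed in their mix. Pro-B-like nuclei numbered 801 in library 1 and 391 in library 2, cluster 11 numbered 253 and 130, and cluster 14 numbered 188 and 81. The other way, cluster 1 numbered 534 in library 1 and 1268 in library 2, GMP-like nuclei numbered 347 and 773, and cluster 8 numbered 199 and 452. The part of this mix, and of the ribosomal locus, in the ratios over all nuclei was not tested.

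For the genes with at least 500 UMIs, the genes most like them over the 18 populations were sought among 3947 genes by the correlation of log2(CPM + 1). *Jak1* was most like *Ndfip1* (r = 0.928), *Aak1* (0.905) and *Senp7* (0.890). *Stat4* was most like *Smad3* (0.896), *Polr2m* (0.892) and *Riok1* (0.879). *Stat5b* came closest to *Smim3*, *Ddx5* and *Aplp2*, *Jak2* to *Capzb*, *Med27* and *Cab39*, and *Stat3* to *Tes*, *Rpl36* and *Sept9*, with r between 0.684 and 0.846. The points share libraries, depth and the total of each population, and no p-value was computed.

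Of the 61 other genes listed for the pathway, 46 had at least 100 UMIs, and 20 of these met the 2-fold rule, against the background of 31.9%. With library 2 alone 7 of the 46 met it, against a background of 15.3%, so this count is near the background. They were *Il7r*, *Csf3r* and *Ifngr1* of the receptor chains, *Pim1* and *Ccnd1* of the STAT targets, *Ptprc* and *Cblb*. With the libraries summed, receptor chains contributed 8 of 16, among them *Ifngr2* at just 2.01-fold in pro-B-like nuclei, with 0.918-fold in library 2. *Il7r*, the IL-7 receptor chain of early lymphoid cells, reached 114 CPM in pro-B-like nuclei, 7.86-fold the others, and *Csf2ra*, the receptor chain for granulocyte-macrophage colony-stimulating factor, 122 CPM in cMoP-like nuclei, 4.07-fold. The level of *Il7r* was higher in cluster 11, at 155 CPM and 7.14-fold the others. *Il7r* also passed 2-fold in NK/T-like nuclei and in clusters 4 and 14, and of these populations NK/T-like nuclei, cluster 4 and cluster 11 were populations of *Stat4* as well. STAT target genes contributed 5 of 8, but *Pim1* at 2.03-fold, *Bcl6* at 2.005-fold and *Ccnd2* at 2.004-fold lay just past 2-fold. Under median-of-ratios scaling these 3 were not called, while *Osm* was. With the ribosomal locus left out of the totals *Bcl6* and *Ccnd2* were not called, while *Mcl1* was. *Bcl2l1*, which encodes the survival factor BCL-XL, was at 34.4 CPM in pro-B-like nuclei, 5.77-fold the others, the same population as *Socs2*, and *Ccnd1*, encoding cyclin D1, at 74.1 CPM in pDCP-like nuclei, 5.69-fold.

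Among the other inhibitors, 3 of 4 SOCS genes with enough UMIs lay just past 2-fold, against the background of 31.9%, *Socs5* at 2.11-fold in cluster 4, *Socs6* at 2.08-fold and *Socs4* at 2.01-fold in pro-B-like nuclei. None of the 3 was called in library 1 alone, in library 2 alone, with the ribosomal locus left out of the totals, under median-of-ratios scaling or with a minimum of 500 genes per nucleus. After removal of the highest doublet scores *Socs6* alone was called, and the pro-B-like ratio of *Socs4* in library 2 was 0.986. *Cish*, *Socs1* and *Socs3*, the inducible feedback inhibitors, had 30, 40 and 27 UMIs in all, below the minimum of 100, and are named for that reason after their counts were seen. Of the phosphatases 1 of 5 met the rule, against the same 31.9%, *Ptprc*, the CD45 gene, at 1019 CPM and 5.18-fold in NK/T-like nuclei. Of the adaptors and ligases 2 of 7 did, against 31.9% again, *Cblb* at 4.96-fold in NK/T-like nuclei and *Sh2b2* at 2.10-fold in cluster 0. None of the 3 PIAS genes tested met the rule, the highest being *Pias4* at 1.94-fold in pro-B-like nuclei.

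Accessibility near the genes was then examined. The windows ran 50 kb to each side of the start interval of each gene in the matrix and held 207 distinct peaks. The windows of *Stat5a* and *Stat5b* shared 23 peaks, since these genes lie head to head on chromosome 11. Window counts are given per 1000000 ATAC counts in peaks (ATAC CPM), with intervals computed on pairs of counts because the ends of a fragment are not independent. At least 1.5-fold the other nuclei was reached in some population by 2 of the 10 genes, against a background of 20.6% of 8817 genes, and with 10 genes this count is near the background. With windows of 10 kb 5 genes passed (*Jak1*, *Stat3*, *Stat4*, *Stat6* and *Socs2*), against a background of 37.0%, and with windows of 100 kb only *Stat4* did, against 13.1%. *Stat4* was 2.60-fold (2.30 to 2.93) in NK/T-like nuclei, with 195 ATAC CPM in library 1 and 200 in library 2, and this is the population in which its RNA was highest. Cluster 11, second in *Stat4* RNA, had 1.48-fold. EryP-like nuclei were lowest at 0.615-fold. *Socs2* passed in 3 populations, cluster 11 at 1.69-fold (1.51 to 1.88), cluster 14 at 1.67-fold (1.43 to 1.95) and pro-B-like nuclei at 1.65-fold (1.56 to 1.74). Its window was lowest in NeuP-like nuclei at 0.430-fold. No *Socs2* UMI was found among their 644021 UMIs, but at 4.73 CPM over all nuclei few would be present, so this says little. With windows of 100 kb the highest *Socs2* ratio was 1.46, in cluster 14, while *Stat4* was at 1.89 in NK/T-like nuclei.

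**Figure D4:**
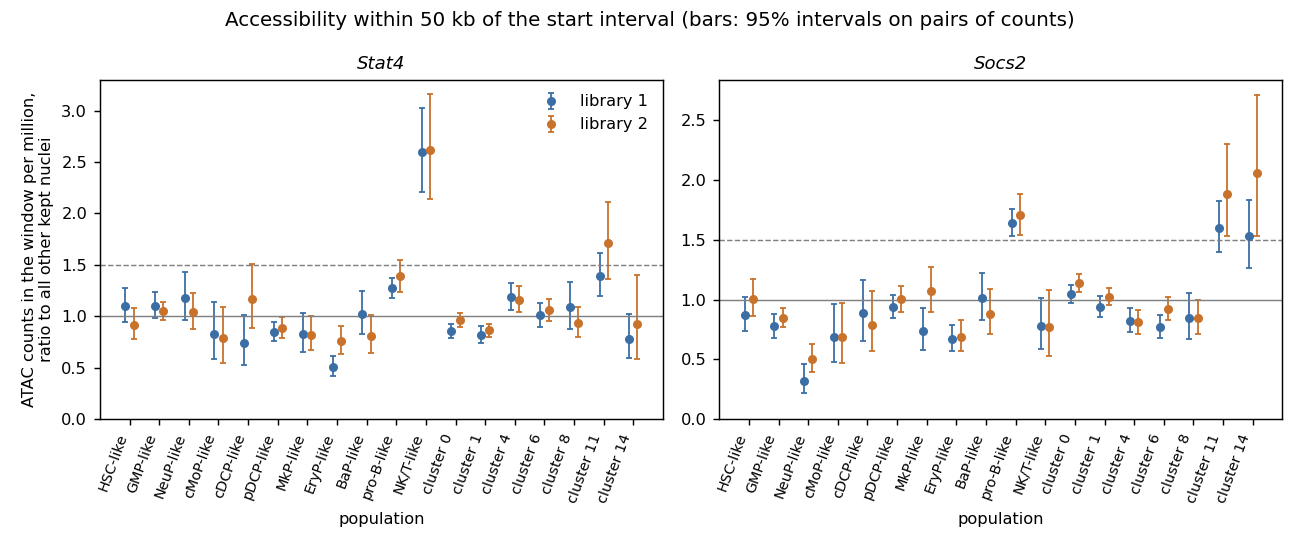
Ratio of ATAC CPM within 50 kb of the start interval of *Stat4* and *Socs2* to those in all other kept nuclei, by population, with library 1 in blue and library 2 in orange and bars for 95% intervals. The dashed line marks 1.5. *Stat4* stands apart in NK/T-like nuclei of both libraries, near 2.6, and *Socs2* passes the line in pro-B-like nuclei and clusters 11 and 14, which it did not with windows of 100 kb.

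Window accessibility hardly differed between the libraries, with ratios of library 2 to library 1 from 0.956 for *Stat3* to 1.025 for *Jak2*. RNA CPM carries the general shift between the libraries, so these ratios are not set against those of RNA. The same ratio over the windows of all genes is not given here. Across the 18 populations, Spearman's correlation of RNA level with window accessibility ran from -0.146 for *Jak2* to 0.608 for *Stat4*, given as a description. The start peak, the peak with the most counts over a start interval, differed less between populations for 8 of the genes. Its highest population lay between 1.645-fold, for *Jak3*, and 2.58-fold, for *Stat5b*, above its lowest. The range was wider for *Stat4*, 6.495-fold with NK/T-like nuclei highest, and *Socs2*, 3.56-fold with MkP-like nuclei highest.

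The start peak of *Socs2*, chr10:95416444-95417326 in GRCm38, held STAT motifs. The motif searched was TTCNNNGAA, the spacing of most STATs, and TTCNNNNGAA, the spacing that STAT6 also binds. Each reads the same on both strands. In the central 300 bases of all 174282 peaks, 8.50% held the first and 7.29% the second. The *Socs2* peak held the first motif in 2 copies there, 2 bases apart, as 0.408% of all peak centres held 2 or more copies. They lie 47 and 58 bases upstream of the start interval and inside an intron of a longer transcript. The stretch from the start interval outward, chr10:95416858-95417034, is shown on the plus strand with the fixed letters of the motif in capitals. It was chosen after the matches were seen.

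Socs2 start peak: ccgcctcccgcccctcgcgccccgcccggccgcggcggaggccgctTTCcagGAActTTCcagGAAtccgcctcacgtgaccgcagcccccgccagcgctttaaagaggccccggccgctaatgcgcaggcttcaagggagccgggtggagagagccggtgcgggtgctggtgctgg

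Of the other start peaks, 3 held a motif anywhere in the peak. With *Socs2*, the first motif lay in 3 of the 10 start peaks and the second in 1, against 22.7% and 20.01% of all peaks searched over their whole length, so these counts are near the background. *Stat5a* and *Tyk2* each held 1 copy of the first motif and *Stat4* 1 copy of the second, at chr11:100860835-100860843, chr9:21131679-21131687 and chr1:52004363-52004372. The sites are shown with 8 bases to each side on the plus strand, again with the fixed letters in capitals. A match is a description of letters, and binding was not measured.

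Stat5a: cccagggcTTCcccGAAgacagcgt
Tyk2: cccaagctTTCcttGAAcagtcttt
Stat4: gactctctTTCtcacGAAgctttagt

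RefSeq promoters of GRCm38.p6, from 250 bases before to 50 bases after the start, were at hand for 9 of the 10 genes, with *Socs2* missing. None of their 12 promoters held either motif. Of all 32851 promoters 8.30% and 6.95% did, so with 12 promoters this count is near the background.

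In each window the peak with the highest population ratio, among peaks with at least 100 counts in that population, was then taken. Of 157 window peaks with enough counts, 25.5% reached 2-fold in some population, against 31.3% of all 105675. The highest ratio was in the *Jak3* window. The peak lay 41876 bases downstream of the start, in an intron of *Fcho1* at chr8:71718973-71719883. It was picked for the highest ratio among the window peaks, so its share among all peaks is no measure of rarity. In EryP-like nuclei it was 28.9-fold (22.2 to 37.9), a ratio that 0.0681% of all peaks reached. Its level there was 26.9 ATAC CPM in library 1 and 23.7 in library 2, and *Jak3* RNA in EryP-like nuclei was 4.57 CPM from 5 UMIs (1.49 to 10.7), a ratio to the other nuclei of 0.454 with an interval on both sides of 1 (0.146 to 1.08). A peak does not name its target gene. For the highest-ratio peaks of the *Stat5b*, *Socs2*, *Stat5a*, *Stat3* and *Stat6* windows, the shares of all peaks reaching the ratio were 0.872%, 1.66%, 3.09%, 6.11% and 6.65%.

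The highest-ratio peaks of the next 3 windows in order had their highest ratio in pro-B-like nuclei. They were selected for their ratio, and the share of all peaks that are highest in pro-B-like nuclei is not given. The *Stat5a* and *Stat5b* windows overlap, so these 3 are not independent. The *Stat5b* window peak, between genes 46381 bases downstream of the start at chr11:100775710-100776583, was 14.4-fold in pro-B-like nuclei (12.2 to 17.0), with 33.8 and 27.2 ATAC CPM in the libraries. The *Socs2* peak, in an intron of *Socs2* at chr10:95388879-95389773, was 11.3-fold (9.72 to 13.2), with 32.0 and 34.6 ATAC CPM. Clusters 11 and 14 had 31.7 and 23.2 ATAC CPM at this peak, and no other population had more than 4.69. The *Stat5a* peak, in an intron of *Stat5b* at chr11:100842941-100843863, was 8.03-fold in pro-B-like nuclei (6.49 to 9.94). RNA of *Stat5b* and *Stat5a* in pro-B-like nuclei was not above the others, at 44.6 and 18.1 CPM. The *Stat3* peak, in an intron of *Stat3* at chr11:100891169-100892039, was 4.96-fold in EryP-like nuclei (4.05 to 6.03). The *Stat6* peak, just upstream of its start at chr10:127639769-127640641, was 4.66-fold in GMP-like nuclei (3.47 to 6.20) and equally open in NeuP-like nuclei, at 6.32 and 6.23 ATAC CPM.

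**Figure D5:**
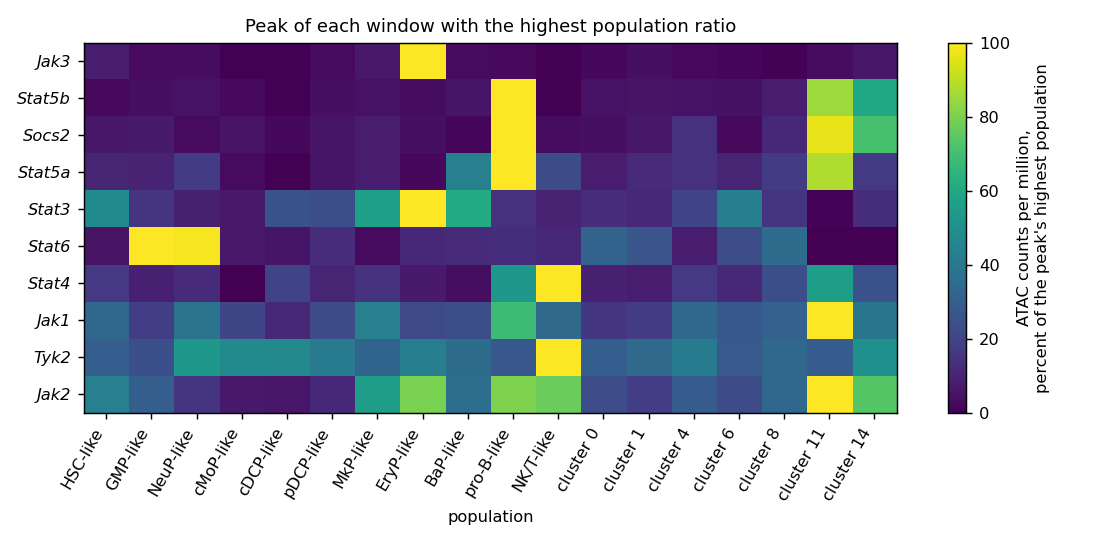
ATAC CPM at the peak with the highest population ratio in each window (rows), as a percentage of its highest population, over 18 populations (columns). The peaks of the *Stat5b*, *Socs2* and *Stat5a* windows are open in pro-B-like nuclei and cluster 11, the first pair also in cluster 14, and the *Jak3* window peak in EryP-like nuclei only among these populations.

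The central 300 bases of these 6 peaks are shown as the highest-ratio peak of each of the 6 windows in which that ratio was greatest. No STAT motif lay in these central stretches of 300 bases. Outside its centre the *Socs2* window peak held 1 copy of the first motif, at chr10:95389642-95389650 (gatgtccaTTCcctGAAataatccc, plus strand, fixed letters in capitals), and it was the only one of the 10 highest-ratio peaks with a motif anywhere in the peak. In the stretches printed here, capitals mark the words AGATAA and TGATAA on either strand, the core bound by GATA factors, a search added after the values were seen. Such a word lay in 22.0% of all peak centres and in 65.5% of the 2866 peak centres that were at least 2-fold in EryP-like nuclei. Both EryP-like peaks held 1, and so did the *Stat5a* window peak. The stretches are chr8:71719278-71719577, chr11:100775997-100776296, chr10:95389176-95389475, chr11:100843252-100843551, chr11:100891454-100891753 and chr10:127640055-127640354, on the plus strand and in the order printed.

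Jak3 window, EryP-like: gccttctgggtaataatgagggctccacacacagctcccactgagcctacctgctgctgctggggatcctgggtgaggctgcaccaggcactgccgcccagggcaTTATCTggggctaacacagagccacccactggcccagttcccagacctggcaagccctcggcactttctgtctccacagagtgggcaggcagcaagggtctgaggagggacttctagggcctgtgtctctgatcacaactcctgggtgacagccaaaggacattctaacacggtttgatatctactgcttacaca
Stat5b window, pro-B-like: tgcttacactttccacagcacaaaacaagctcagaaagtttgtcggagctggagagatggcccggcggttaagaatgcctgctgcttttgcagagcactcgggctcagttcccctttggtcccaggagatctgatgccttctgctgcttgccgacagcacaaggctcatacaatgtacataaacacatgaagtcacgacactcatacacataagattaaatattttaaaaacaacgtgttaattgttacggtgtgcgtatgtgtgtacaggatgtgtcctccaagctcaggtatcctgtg
Socs2 window, pro-B-like: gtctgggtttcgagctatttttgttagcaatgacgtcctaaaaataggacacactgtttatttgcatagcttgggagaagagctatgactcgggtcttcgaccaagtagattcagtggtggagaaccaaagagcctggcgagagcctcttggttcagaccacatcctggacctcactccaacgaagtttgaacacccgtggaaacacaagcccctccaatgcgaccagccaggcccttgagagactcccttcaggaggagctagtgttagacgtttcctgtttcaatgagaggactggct
Stat5a window, pro-B-like: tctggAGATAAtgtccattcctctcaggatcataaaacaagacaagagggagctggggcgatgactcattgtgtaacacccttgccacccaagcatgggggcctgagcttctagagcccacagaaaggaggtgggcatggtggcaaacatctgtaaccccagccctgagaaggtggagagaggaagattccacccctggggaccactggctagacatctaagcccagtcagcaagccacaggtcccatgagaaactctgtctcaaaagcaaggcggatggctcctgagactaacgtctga
Stat3 window, EryP-like: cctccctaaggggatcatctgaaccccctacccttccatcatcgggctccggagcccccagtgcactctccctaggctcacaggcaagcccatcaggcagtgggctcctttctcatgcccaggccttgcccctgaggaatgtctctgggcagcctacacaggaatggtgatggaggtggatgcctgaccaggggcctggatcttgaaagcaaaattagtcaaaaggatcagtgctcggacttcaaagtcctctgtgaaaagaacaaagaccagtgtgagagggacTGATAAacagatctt
Stat6 window, GMP-like: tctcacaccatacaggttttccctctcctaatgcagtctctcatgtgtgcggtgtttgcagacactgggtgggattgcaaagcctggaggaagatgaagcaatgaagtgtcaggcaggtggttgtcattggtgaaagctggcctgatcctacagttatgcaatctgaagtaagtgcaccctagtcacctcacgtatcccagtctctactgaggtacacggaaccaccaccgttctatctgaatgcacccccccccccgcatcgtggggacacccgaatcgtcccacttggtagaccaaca

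Overlapping genes limit some of these values. *Stat3* and *Stat5a* overlap at their 3′ ends on opposite strands, and on the opposite strand *Jak1* overlaps *Raver2* and *Gm24468*, *Stat4* overlaps *Gm3940*, *Stat6* overlaps *Nab2* and *Tyk2* overlaps *1700084C06Rik*. On the same strand, *Gm12785* overlaps *Jak1*, *Gm28177* overlaps *Stat4* and *Insl3* overlaps *Jak3*. The strand setting of the counting is unknown here, so reads in these overlaps cannot be assigned with certainty.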

How the data were processed

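Nuclei of lineage-negative, cKit-positive BM cells were profiled by single-nucleus multiome sequencing (RNA and ATAC). The authors aligned and counted reads with Cell Ranger ARC 2.0.0 against GRCm38 and deposited raw counts per gene (UMIs) and per peak, with 1 peak set and 1 matrix for both samples. Per the submitters' processing notes, Seurat 4.0.3 and Signac 1.3.0 were then used. The sources used here do not state the strand setting of the counting.

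Kept nuclei had 1000 to 50000 ATAC counts and a minimum of 200 genes, which left 13619 of 18961. Mitochondrial genes gave 0 rows, so the study's mitochondrial filter could not be applied. Even values made up 82.7% of nonzero peak counts, so ATAC intervals were computed on pairs of counts, and limits on counts may not equal the study's limits on fragments. Scrublet called 3 doublets (0.022%), which is too few to have worked, and no nuclei were removed as doublets. Clusters came from Seurat 5.3.0 in R 4.3.3, from 30 components of RNA and of ATAC, at resolution 0.8. Of 71 listed genes and 207 window peaks none entered the clustering. Clusters were named from marker lists only where at least 3 markers were raised and leading genes did not go against the name. A name was withdrawn where another list had more raised markers, a rule added after the marker values were seen. It took the common lymphoid progenitor name from cluster 11 and the B cell name from cluster 14. Names were rebuilt here and may differ from the study's.

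UMIs were summed over nuclei by population and library and scaled to 1000000 UMIs (CPM). Genes with at least 100 UMIs were used. Nuclei are not replicates and each group was 1 sample, so no test was run. Intervals are exact 95% Poisson intervals for levels and exact conditional intervals for ratios. Counts of 0 were given the limit of 3 counts. The genes described, the pathway lists, the thresholds and the alternatives were chosen with earlier results of these data known. The 10 genes were all described, with their 3 most like genes where a member had at least 500 UMIs, and pathway genes were named by their lists. The result of 1 pathway list is not reported here. Alternatives were other scalings, filters, resolutions, libraries alone, window sizes and UMI minimums. Gene models were from GENCODE vM21 (99.6% of gene identifiers matched). Scripts were tested on simulated data with known ratios. Python 3.11.15, scipy 1.17.1 and pysam 0.24.0 were used.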

Additional observations from a re-analysis of the deposited data

How the results depend on the processing

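The number of genes with a population at 2-fold, 8 as reported, ran from 5 to 9 over 12 alternatives. It was 5 in library 2 alone and 5 with at least 50 UMIs in the population. Genes with libraries at least 1.5-fold apart numbered 4 under median-of-ratios scaling (*Jak2*, *Jak3*, *Stat4* and *Socs2*) and 1 with all barcodes (*Jak3*), against 2. Genes whose window reached 1.5-fold numbered 5 with windows of 10 kb (*Jak1*, *Stat3*, *Stat4*, *Stat6* and *Socs2*) and 1 with 100 kb (*Stat4*), against 2 (*Stat4* and *Socs2*). *Socs2* was lost at 100 kb, with a highest ratio of 1.46. Of the pathway genes, 7 reached 2-fold in library 2 alone, against 20. The highest ratio of *Stat5a* became 0.882 with at least 50 UMIs, in cluster 1, since BaP-like and EryP-like nuclei held 23 and 48 UMIs. Removal of nuclei whose barcode sequence occurs in both libraries was chosen after seeing the data and left the 8, 2 and 2 genes above. No paired analysis was possible because each group was 1 sample and no test was made. The cause of the other changes was not tested. Depth limits *Jak3* and *Socs2* most, and most populations held fewer than 20 UMIs of either.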
